A study of Rattus norvegicus with 6 samples.

Results

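The 43 genes described here encode the structural proteins of the extracellular matrix, the enzymes that cross-link and degrade them, and the defining, contractile and signalling proteins of hepatic stellate cells. They were taken as a fixed list of symbols, matched to the array through each probe's accession and the RefSeq gene table. Of the 43, 35 had at least 1 named probe, out of 15284 genes named on the array, and each gene was read from its probe with the highest mean signal. No probe could be named here for Col5a2, Col6a1, Col6a3, Col4a2, Col15a1, Lamb1, Nid1 or Lox. Testing required that every array of one group or the other showed the probe well above background. That left 34 genes, all of them well above background on all 6 arrays, and Lum, which was so on 1 array.

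The arrays hold liver RNA of 6 male Sprague-Dawley (Crl:CD(SD)) rats, an outbred stock, bought at 5 weeks of age and kept on a basal diet. There were 3 rats given 1000 mg/kg/day of tert-butyl alcohol (tBA), an industrial solvent and fuel additive, and 3 rats given vehicle. The labels disagree on the vehicle, purified water in the sample labels and corn oil in the treatment protocol, and on the length of dosing, 28 days in the series' design and 9 weeks in the protocol. Each group has 3 arrays, 1 per rat, and their number limits the precision. Slide 1 held tBA replicate 1 and the 3 vehicle arrays, and slide 2 held tBA replicates 2 and 3, so slide and treatment are partly confounded. The slides were scanned on different days, so scan day cannot be told apart from slide. The share of the 61657 probes with signal well above background ran from 61.5% to 66.9% per array. The hepatocyte markers Alb, Ttr, Apoa1, Tf, Serpina1, Cps1, Hpd and Fgb, 8 of 8, were above background on all arrays, as were 10 of 11 named stellate cell markers. The smooth muscle markers Cnn1 and Lmod1 and the fibroblast gene Postn were not well above background on any array.

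Stellate cells lie between the hepatocytes and the sinusoidal endothelium and store vitamin A in the quiescent state. After liver injury they turn into contractile myofibroblasts, under transforming growth factor beta and platelet-derived growth factor, and deposit fibrillar collagen. Their activation is therefore commonly followed by transcripts of Col1a1, Col3a1, Acta2, Timp1 and Ccn2. The comparison of tBA with vehicle shows how the transcripts of this program stood after repeated dosing.

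None of the 34 genes passed an adjusted p of 0.05 in limma, against 5 of 11093 genes tested (0.0451%) and 43 of 37647 probes (0.114%). The smallest adjusted p among the 34 was 0.248, for Mmp2. The differences, tBA minus vehicle, ran from -1.25 to 0.58 on the log2 scale of the processed signal divided by each array's 75th percentile, with a median of -0.15. The median over all genes tested was 0.003. In sign, 28 of the 34 were below 0 (82.4%), as were 49.4% of all genes tested. At an unadjusted p under 0.05, limma gave 4 genes lower with tBA, or 11.8% of the 34, beside 7.44% of all genes. On the higher side it gave 0, beside 7.64% of all genes. All 3 tBA values lay below all 3 vehicle values in 5 genes, or 14.7%, beside 11.3% of all genes, and above them in 0 genes, beside 12.8%. With 3 rats a group, the exact two-sided permutation test of a single gene cannot go below p = 0.1. The 34 genes were read on the same 6 arrays, so their values are not independent of each other. In whole liver, fewer stellate cells and less RNA per stellate cell cannot be told apart.

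The counts leaned on 2 arrays. Without tBA replicate 3, 22 of the 34 genes were below 0, the median was -0.08, and 1 gene was lower and 1 higher at an unadjusted p under 0.05, beside 6.198% and 6.171% of all genes. Without vehicle replicate 3, the corresponding values were 24 genes, -0.09, 2 lower and 0 higher, beside 6.71% and 6.10% of all genes. Within slide 1, where tBA replicate 1 stands alone against the 3 vehicle arrays, 24 genes were below 0 with a median of -0.10, and 0 were lower and 1 higher at an unadjusted p under 0.05 in limma, beside 3.75% and 3.51% of all genes. That fit assumes that the lone tBA array varies like the vehicle arrays.

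**Figure D1:**
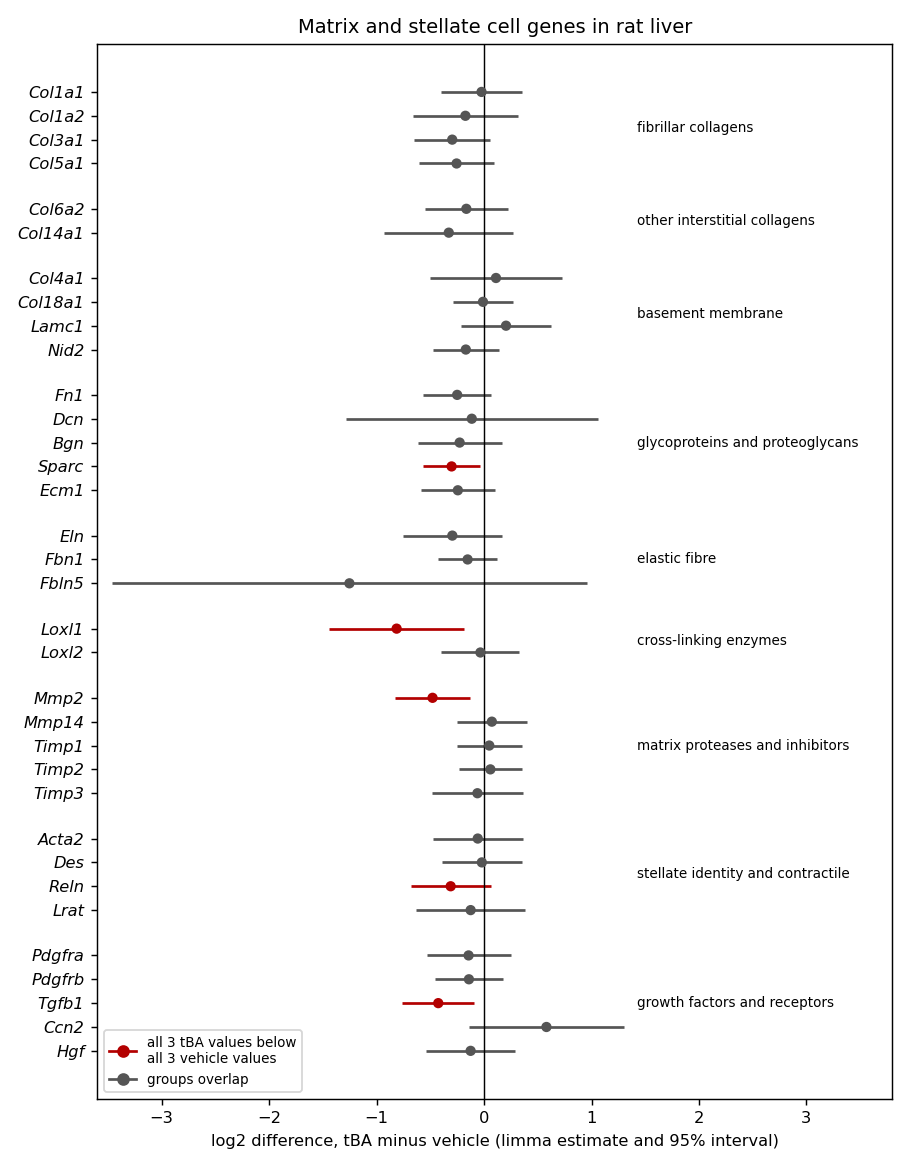
Log2 difference of tBA minus vehicle for the 34 tested genes, ordered by role, as the limma estimate with its 95% interval. Of the 34 points, 28 lie left of 0, and the 5 in red (Sparc, Loxl1, Mmp2, Reln and Tgfb1) are those whose 3 tBA values lie below all 3 vehicle values.

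The fibrillar collagens form the tensile fibres of the portal tract and of scar. Col3a1, the type III collagen chain, had the smallest p of the group. Its scaled log2 signal was 3.79, 4.01 and 3.50 in tBA livers, against 4.05, 3.98 and 4.15 in vehicle livers. The groups overlapped through tBA replicate 2, and the difference was -0.30 (SE 0.15, limma adjusted p = 0.370). Col1a1 and Col1a2 encode the chains of type I collagen, the main collagen of fibrosis. Col1a1 was at 0.64, 1.04 and 0.72 in tBA livers and 1.05, 0.64 and 0.78 in vehicle livers, so that both groups covered the same range. Its difference was -0.02, with a 95% interval from -0.40 to 0.36, or 0.984 on the linear scale. Col1a2 was at -0.17 (interval -0.66 to 0.31) and Col5a1, a minor chain that nucleates the fibrils, at -0.26 (interval -0.60 to 0.09). The 3 probes of Col1a1 were at -0.02, -0.24 and -0.55, so the value of this gene depends on the probe read. The probe at -0.55 had an unadjusted limma p of 0.0213 and groups that did not overlap.

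The other interstitial collagens with a named probe were Col6a2, of the beaded filaments, and Col14a1, which decorates collagen fibrils. Col14a1 was at 2.60, 2.61 and 2.15 in tBA livers, against 2.71, 2.39 and 3.25 in vehicle livers. Vehicle replicate 3 was the highest array and tBA replicate 3 the lowest, and the difference was -0.33 (SE 0.25, limma adjusted p = 0.529). Col6a2 was at -0.16 (interval -0.55 to 0.22).

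Basement membrane genes were on both sides of 0. They build the sheets beneath bile ducts and vessels, and sinusoids carry a sparse form. Col4a1, the chain of the type IV network, was at 0.11 and Lamc1, the laminin gamma 1 chain, at 0.20, while Col18a1, the precursor of endostatin, was at -0.01. The 4 probes of Col4a1 were at 0.11, 0.05, -0.10 and -0.19. The probe at -0.19 had an unadjusted limma p of 0.0769 and groups that did not overlap, on the lower side. Nid2, the nidogen that links laminin to type IV collagen, was at -2.02, -2.43 and -2.24 in tBA livers and -2.07, -2.12 and -1.99 in vehicle livers. The groups overlapped through tBA replicate 1, and the difference was -0.17 (SE 0.13, limma adjusted p = 0.524). Lamc1 stood highest on tBA replicate 1, at 2.15, with tBA replicates 2 and 3 at 1.78 and 1.49 and the vehicle arrays at 1.60, 1.54 and 1.66. Within slide 1, with that tBA array alone, the difference was 0.54. Its 3 probes were at 0.20, 0.25 and -0.12. The probe at 0.25 had an unadjusted limma p of 0.0323 and groups that did not overlap, on the higher side.

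Among glycoproteins and proteoglycans, 5 of 5 tested genes were below 0. Sparc, a collagen-binding protein made by stellate and endothelial cells, was at 4.87, 4.96 and 4.67 in tBA livers, against 5.08, 5.10 and 5.22 in vehicle livers. The groups did not overlap. The difference was -0.30 (SE 0.11, unadjusted p = 0.0309, limma adjusted p = 0.285), with an interval from -0.57 to -0.04. Fn1, fibronectin, which hepatocytes secrete in bulk to plasma, was at -0.25 (interval -0.57 to 0.07), and its 3 probes lay between -0.35 and -0.25. Within slide 1 the difference of Fn1 was -0.0003, the value of tBA replicate 1 alone. Ecm1, which holds latent transforming growth factor beta inactive in mouse liver, was at -0.24 (interval -0.59 to 0.10). Bgn, the proteoglycan biglycan, was at -0.23 by its brightest probe and 0.11 by the other.

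Decorin, lumican and fibulin 5 are made by fibroblasts in many tissues, and their genes differed more between single arrays than between groups. Their choice for display followed from their values. Fbln5, which anchors elastic fibres to cells, was at -3.39, -3.27 and -3.68 in tBA livers, and at -3.33, -3.32 and 0.06 in vehicle livers. Vehicle replicate 3 thus stood 10.05-fold above the next highest array, while the other 5 arrays lay close together. The difference of -1.25 (SE 0.91) was -0.12 without that array. A gap of 4-fold or more above all other arrays occurred for 5 of 11093 genes on vehicle replicate 3, and for 0 to 7 genes on each of the other arrays. Fbln5 was the 1 gene of the 34 with such a gap. Lum was at -7.43, -6.07 and -7.66 in tBA livers and -7.43, -6.42 and -4.17 in vehicle livers, well above background on vehicle replicate 3 alone, so no fold is given. Dcn was at -0.27, 0.84 and -0.24 in tBA livers and -0.33, -0.17 and 1.16 in vehicle livers, with 1 high array in each group. Its difference of -0.11 (SE 0.48) was 0.36 without vehicle replicate 3. Each of these 3 genes had 1 probe.

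The other elastic fibre genes were Eln, the elastin core, and Fbn1, the fibrillin of the microfibrils around it. Eln was at -0.39, -0.39 and -0.99 in tBA livers, against -0.42, -0.13 and -0.34 in vehicle livers. Only tBA replicate 3 lay below the vehicle range, and the difference was -0.30 (SE 0.19, limma adjusted p = 0.467). One of the other probes of Eln was at 0.25. Fbn1 was at -0.15 (interval -0.43 to 0.12).

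Loxl1 and Loxl2 are lysyl oxidase relatives that start the covalent cross-links of elastin and collagen. Loxl1 was at -1.32, -1.78 and -2.03 in tBA livers, against -1.11, -0.43 and -1.14 in vehicle livers. The groups did not overlap, and vehicle replicate 2 was the highest array. The difference was -0.81 (SE 0.26, unadjusted p = 0.0193, limma adjusted p = 0.261), or 0.569 on the linear scale, with an interval from -1.44 to -0.18. A second probe of Loxl1 was at -0.73. Within slide 1 the difference was -0.43. Loxl2 was at -0.03 (interval -0.40 to 0.33).

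Mmp2, the gelatinase that stellate cells secrete, had the smallest p of the 34. It was at 1.16, 0.85 and 0.66 in tBA livers, against 1.35, 1.30 and 1.46 in vehicle livers, and the groups did not overlap. The difference was -0.48 (SE 0.14, unadjusted p = 0.0149, limma adjusted p = 0.248), or 0.717 on the linear scale, with an interval from -0.83 to -0.13. The second probe of Mmp2 was at -0.50, with groups that did not overlap either. Within slide 1 the difference was -0.21, the value of tBA replicate 1 alone. Mmp14, the membrane protease that activates the Mmp2 proenzyme, was at 0.07 (interval -0.25 to 0.40). The inhibitors of these proteases lay close to 0. Timp1, which is strongly induced in fibrosis, was at 1.40, 1.39 and 1.04 in tBA livers, against 1.16, 1.25 and 1.28 in vehicle livers, with a difference of 0.05 (interval -0.25 to 0.35). Timp2, which takes part in Mmp2 activation, was at 0.06 (interval -0.24 to 0.35), and Timp3, which binds to the matrix, at -0.06 (interval -0.48 to 0.36).

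Genes of stellate cell identity and contraction were below 0 in 4 of 4 cases, by small amounts. Reln, the secreted glycoprotein reelin that marks stellate cells in liver, was at 1.89, 1.95 and 1.80 in tBA livers, against 2.11, 1.96 and 2.50 in vehicle livers. The groups did not overlap, though tBA replicate 2 and vehicle replicate 2 differed by less than the SD of either group. The difference was -0.31 (SE 0.15, limma adjusted p = 0.371), and -0.16 without vehicle replicate 3. Its 3 probes were at -0.31, -0.32 and -0.07. Acta2, smooth muscle actin and the common mark of activation, was at -1.45, -1.31 and -1.95 in tBA livers, against -1.51, -1.49 and -1.54 in vehicle livers. Its tBA values lay on both sides of the vehicle values, and the difference was -0.06 (interval -0.48 to 0.36). Lrat, the enzyme that esterifies retinol for storage, was at -0.12 (interval -0.63 to 0.38), and Des, the intermediate filament desmin, at -0.02 (interval -0.40 to 0.35).

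The growth factor genes held both a low and a high value. Tgfb1, the main fibrogenic cytokine, was at -2.48, -2.83 and -2.68 in tBA livers, against -2.43, -2.07 and -2.21 in vehicle livers. The groups did not overlap, although tBA replicate 1 and vehicle replicate 1 were close. The difference was -0.43 (SE 0.14, unadjusted p = 0.0208, limma adjusted p = 0.266), or 0.744 on the linear scale, with an interval from -0.76 to -0.09. It was -0.25 within slide 1 and -0.21 with normexp background correction. Ccn2, a matricellular protein induced by transforming growth factor beta and by the mechanosensitive factor YAP, had the highest difference of the 34. It was at -1.81, -1.26 and -1.33 in tBA livers, against -2.15, -1.46 and -2.53 in vehicle livers, and the groups overlapped through tBA replicate 1 and vehicle replicate 2. The difference was 0.58 (SE 0.30, limma adjusted p = 0.382), with an interval from -0.14 to 1.30, and 0.24 within slide 1. The receptors Pdgfra and Pdgfrb, through which platelet-derived growth factor drives stellate cell division, were both at -0.14. A second probe of Pdgfrb was at 0.04. Hgf, the hepatocyte mitogen made by stellate cells, was at -0.12 (interval -0.54 to 0.29).

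**Figure D2:**
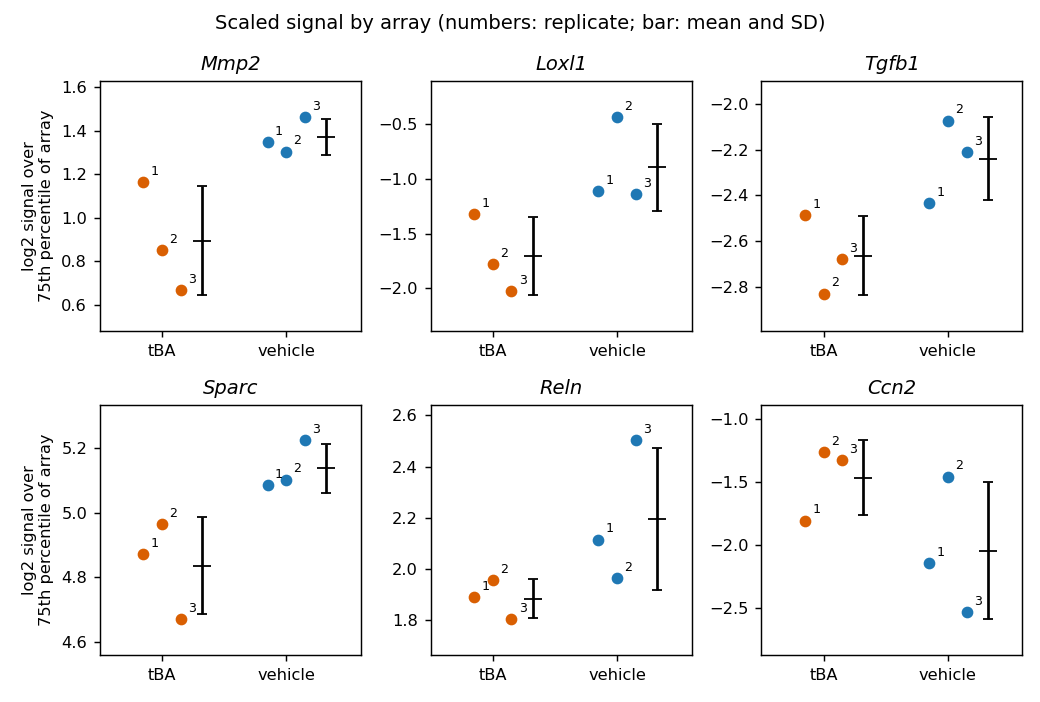
Scaled log2 signal of 6 genes by array, tBA on the left and vehicle on the right, with the replicate number beside each point and the mean and SD of the 3 arrays as bars. The tBA and vehicle points do not overlap for Mmp2, Loxl1, Tgfb1, Sparc and Reln, and overlap for Ccn2.

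The intervals set a limit on what could have been missed within the fit without slide. Slide and treatment are partly confounded, so these intervals do not cover a difference between the slides. For 30 of the 34 genes the 95% interval lay within a 2-fold change in either direction, and the other 4 were Dcn, Fbln5, Loxl1 and Ccn2. The upper bound was below a 1.5-fold increase for 29 of the 34, Col1a1, Col1a2, Col3a1, Timp1 and Acta2 among them. The 5 with a higher upper bound were Col4a1, Lamc1, Dcn, Fbln5 and Ccn2. The standard errors of the 34 differences ran from 0.11 to 0.91, with a median of 0.16.

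Arrays of 1 group differed together across these genes. Relative to the vehicle mean of each gene, the median of the 34 was -0.10 on tBA replicate 1, -0.04 on tBA replicate 2 and -0.35 on tBA replicate 3, and -0.02, -0.07 and 0.07 on vehicle replicates 1, 2 and 3. Of the 3 tBA arrays, replicate 3 was the lowest in 26 of the 34 genes (76.5%), beside 35.6% of all genes tested. Of the 3 vehicle arrays, replicate 3 was the highest in 19 of the 34 (55.9%), beside 35.1% of all genes. By role, the lowest medians on tBA replicate 3 were those of role groups with 2 or 3 tested genes. They were -0.69 for the elastic fibre genes, -0.68 for the cross-linking enzymes and -0.53 for the other interstitial collagens. The median was -0.47 for the glycoproteins and proteoglycans, -0.38 for the fibrillar collagens and -0.34 for the stellate identity and contractile genes. It was -0.27 for the growth factors and receptors and -0.19 for the proteases and inhibitors. For the basement membrane genes it was 0.02. On tBA replicates 1 and 2 the proteases and inhibitors were at 0.17 and 0.15, above the vehicle mean. Markers of other cell types did not all move with these genes. On tBA replicates 1, 2 and 3 the median of the 6 sinusoidal endothelial markers tested was 0.16, 0.13 and 0.19. On vehicle replicates 1, 2 and 3 it was -0.07, 0.11 and -0.03. The median of the 8 Kupffer cell and macrophage markers was -0.17, -0.16 and -0.11 on the tBA replicates. On the vehicle replicates it was -0.14, 0.20 and -0.13, so only vehicle replicate 2 stood above the tBA arrays by more than a small amount. On tBA replicates 1, 2 and 3, the 4 smooth muscle markers tested had medians of 0.02, -0.09 and -0.27. The 4 portal fibroblast markers, of which Eln is itself among the 34, were at -0.008, 0.001 and -0.41. The 11 stellate cell markers tested, 3 of which are among the 34, had medians of -0.01, 0.04 and -0.24 on tBA replicates 1, 2 and 3. In the comparison of the groups 3 of the 11 were above 0 and 8 below. At an unadjusted p under 0.05 in limma, 2 were higher and 0 lower, beside 7.64% and 7.44% of all genes. The 2 were the nerve growth factor receptor Ngfr at 0.94 and the signalling regulator Rgs5 at 0.44. For both, tBA and vehicle values overlapped. Another 2 of the 11 had every tBA value below every vehicle value, beside 11.3% of all genes. For 0 of the 11 every tBA value was above, beside 12.8%. Of 5 exocrine pancreas markers 2 were tested, and Prss1, Cela1 and Pnlip were not well above background on any array. The summed scaled signal of the exocrine pancreas markers was 0.540, 0.329 and 1.58 in tBA livers and 0.446, 0.457 and 0.538 in vehicle livers. The 3 mesothelium and capsule markers tested had medians of -0.20, 0.03 and -0.38 on tBA replicates 1, 2 and 3. Whether the makeup of the tissue piece has a part in the values of tBA replicate 3 was not tested.

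**Figure D3:**
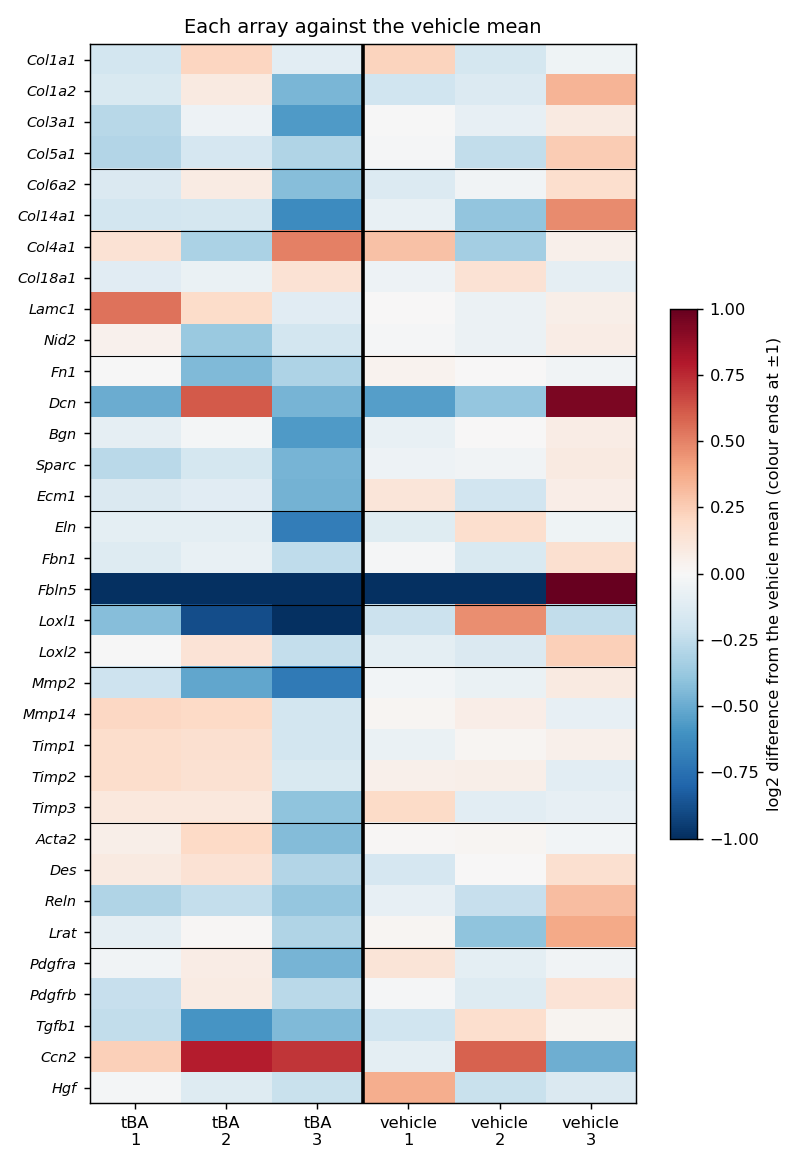
Scaled log2 signal of each of the 34 genes on each array, minus that gene's mean over the 3 vehicle arrays, with tBA arrays left of the black line and thin lines between role groups. The column of tBA replicate 3 is blue for most genes outside the basement membrane group, and Fbln5 and Dcn are red on vehicle replicate 3.

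**Figure D4:**
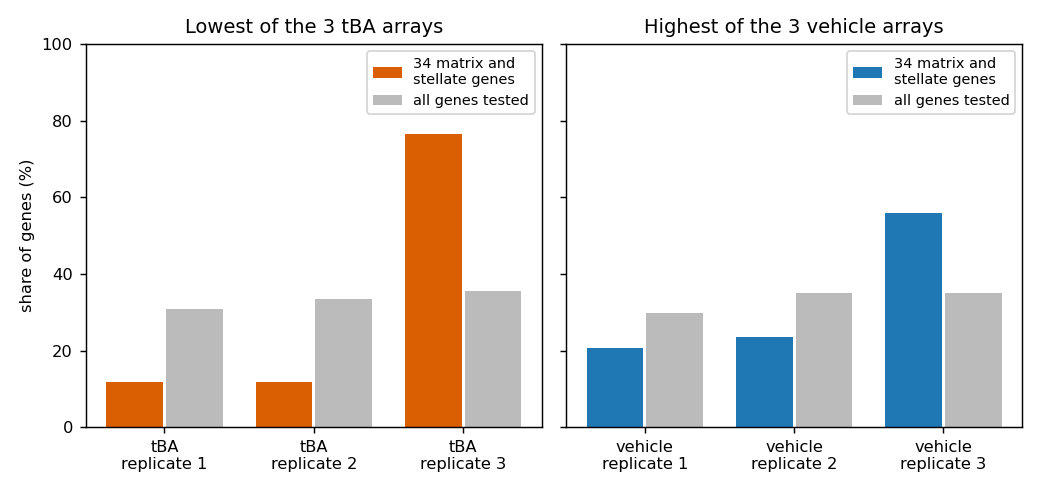
Share of genes for which each array was the lowest of the 3 tBA arrays (left) or the highest of the 3 vehicle arrays (right), for the 34 genes in colour and for all 11093 genes tested in grey. On tBA replicate 3 the share is 76.5% against 35.6%, and on vehicle replicate 3 it is 55.9% against 35.1%.

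The proximal promoters of the genes with the smallest p that have a window, and of Ccn2, are shown so that the letters upstream of genes with low and with high differences can be read side by side. They are the 250 bases before the annotated start, 5′ to 3′ on the gene's strand, from RefSeq on the GRCr8 build. The table of promoters held 29 of the 43 genes and, among those with the smallest p, neither Mmp2 nor Col3a1. Capitals mark letters of the motifs searched on both strands: the AP-1 motif TGANTCA, the SMAD motifs CAGACA and GTCTAGAC, the CArG box of serum response factor, the TATA box TATAAA and the Sp1 motif GGGCGG. Loxl1 lies at chr8:67612225-67612474 on the minus strand, Tgfb1 at chr1:90324062-90324311 on the plus strand, Sparc at chr10:40038817-40039066 on the minus strand, Reln at chr4:13628318-13628567 on the plus strand and Ccn2 at chr1:22624615-22624864 on the minus strand.
Loxl1: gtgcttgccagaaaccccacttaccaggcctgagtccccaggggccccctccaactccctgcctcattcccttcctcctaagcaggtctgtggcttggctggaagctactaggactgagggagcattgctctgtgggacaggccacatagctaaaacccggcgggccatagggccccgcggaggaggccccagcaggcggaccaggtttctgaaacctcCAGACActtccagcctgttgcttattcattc
Tgfb1: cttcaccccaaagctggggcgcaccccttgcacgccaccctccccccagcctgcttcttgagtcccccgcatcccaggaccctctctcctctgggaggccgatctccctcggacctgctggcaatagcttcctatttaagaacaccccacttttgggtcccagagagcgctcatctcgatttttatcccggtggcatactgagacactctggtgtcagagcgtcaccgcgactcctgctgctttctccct
Sparc: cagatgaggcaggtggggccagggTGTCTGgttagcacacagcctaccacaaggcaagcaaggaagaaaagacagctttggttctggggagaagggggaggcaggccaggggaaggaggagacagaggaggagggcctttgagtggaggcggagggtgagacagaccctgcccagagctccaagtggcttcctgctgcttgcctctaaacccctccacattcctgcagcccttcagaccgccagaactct
Reln: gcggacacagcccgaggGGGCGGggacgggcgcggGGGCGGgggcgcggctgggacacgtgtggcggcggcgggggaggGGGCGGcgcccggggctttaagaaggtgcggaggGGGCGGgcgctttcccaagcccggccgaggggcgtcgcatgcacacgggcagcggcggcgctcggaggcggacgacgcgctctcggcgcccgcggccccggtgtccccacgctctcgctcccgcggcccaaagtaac
Ccn2: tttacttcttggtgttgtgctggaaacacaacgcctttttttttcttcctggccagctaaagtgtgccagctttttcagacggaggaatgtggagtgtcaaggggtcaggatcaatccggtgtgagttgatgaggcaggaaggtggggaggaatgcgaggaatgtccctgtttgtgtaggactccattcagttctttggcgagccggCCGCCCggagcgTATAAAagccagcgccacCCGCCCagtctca
Loxl1 held the SMAD motif CAGACA 31 bases before the start, and Sparc held its reverse complement 226 bases before it. Ccn2 held a TATA box 31 bases before the start and the Sp1 motif at 2 places, and Reln held the Sp1 motif at 4 places, all within a GC content of 80.0%. The window of Tgfb1 held none of the motifs, and the AP-1 motif, the CArG box and GTCTAGAC were in none of the 5. Across 33469 windows of this length, CAGACA was in 17.2%, the Sp1 motif in 30.5%, the TATA box in 12.9%, the AP-1 motif in 6.34%, the CArG box in 1.5% and GTCTAGAC in 0.173%. Among the 29 windows of the listed genes, these counts were 6, 16, 3, 3, 0 and 0. A match is a match of letters only.

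Beyond the 43 genes, 8 lists of related genes held 182 symbols, of which 111 were tested, and none passed an adjusted p of 0.05 in limma. Of the 111, 42 were higher and 69 lower with tBA, with a median of -0.11. At an unadjusted p under 0.05 there were 6 higher and 11 lower, or 5.41% and 9.91% of the 111, beside 7.64% and 7.44% of all genes. Groups did not overlap in 6 higher and 20 lower genes, or 5.41% and 18.0% of the 111, beside 12.8% and 11.3% of all genes. The same all-gene shares stand beside the counts of the single lists, which hold 7 to 21 tested genes each.

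Collagen processing held the largest differences. Of 17 tested, 2 were higher and 4 lower at an unadjusted p under 0.05. P3h3, a relative of the prolyl 3-hydroxylases that modify collagen chains in the endoplasmic reticulum, was at 0.89, 1.61 and 0.47 in tBA livers, against -0.53, -0.40 and -0.47 in vehicle livers. By this probe the groups were far apart, with a difference of 1.46 (SE 0.28, limma adjusted p = 0.168). The mean of its 2 probes was lower, at 0.68. The other probe therefore did not show this increase, and the difference rests on the probe read. Loxl4, another lysyl oxidase relative, was at 0.67, -0.03 and -0.05 in tBA livers, against 0.88, 1.73 and 1.51 in vehicle livers, with a difference of -1.18 (SE 0.29, limma adjusted p = 0.213) and of -0.70 within slide 1.

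In transforming growth factor beta signalling 1 of 19 tested genes was lower at an unadjusted p under 0.05 and 0 were higher. Ltbp4, which binds latent transforming growth factor beta and assists elastic fibre assembly, was at -0.18, -0.73 and -0.60 in tBA livers, against 0.56, 0.17 and 0.68 in vehicle livers, and the groups did not overlap. Its difference was -0.97 (SE 0.20, limma adjusted p = 0.180), and -0.65 within slide 1. Ltbp3, of the same family, was at -0.30. Among platelet-derived growth factor, CCN and hepatocyte growth factor genes, 0 of 10 reached an unadjusted p of 0.05 in limma. Met, the receptor of hepatocyte growth factor, was at -0.21, and Hgfac, the protease that activates that factor, at -0.22.

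Among other matrix proteases and inhibitors, 0 of 15 were higher and 3 lower at an unadjusted p under 0.05. Mmp19, a secreted metalloproteinase, was at -0.81, -0.81 and -0.78 in tBA livers, against -0.34, -0.32 and -0.56 in vehicle livers, with a difference of -0.40 (SE 0.10, limma adjusted p = 0.214). Plau, the urokinase plasminogen activator, was at -0.37. Matrix receptors had 2 higher and 1 lower of 15 tested by the same measure, with the syndecans Sdc4 at 0.55 and Sdc3 at -0.22. Other glycoproteins and proteoglycans had 1 higher and 1 lower of 21, with Omd, the keratan sulfate proteoglycan osteomodulin, at 0.77 and Mfap4, a microfibril protein, at -0.39. For other collagen chains it was 0 higher and 1 lower of 7, with Col2a1, the cartilage collagen, at -0.44 and -0.11 with normexp background correction, and Col4a4 at 0.37. For other laminins and basement membrane genes it was 1 higher and 0 lower of 7, with the calcium-binding proteins Smoc1 at 0.47 and Smoc2 at -0.42.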

How the data were processed

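Liver RNA of 3 tBA-treated and 3 vehicle-treated rats was read on 1-colour Agilent rat arrays with Cy3 as the dye, per the labels. Spot intensity, as deposited, is the processed signal of Agilent's Feature Extraction software, whose version is 10.7.1.1 per the file headers and 10.7 per the submitters' processing notes. The deposited series table holds a linear ratio: processed signal over 1 divisor per array, 570.0 to 639.5, close to that array's 75th percentile. Its column medians were 0.0982, 0.0950 and 0.0952 for tBA replicates 1 to 3 and 0.102, 0.102 and 0.0994 for vehicle replicates 1 to 3, so it is linear and not centred per gene. The array design names the rn4 genome, per the file headers, and no coordinates were taken from it.

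Each log2 signal had the 75th percentile of its own array subtracted, taken over 61657 probes. Control spots were dropped, and outlier spots, 3 to 16 an array, became missing values. Over the 37647 probes that were well above background on all arrays of a group, limma 3.58.1 (R 4.3.3; lmFit, then eBayes) estimated the differences, with Benjamini-Hochberg adjustment over these probes. Of 61657 probes, 27460 were named through accessions of the GRCr8 RefSeq table. The genes, role groups and related lists were chosen with earlier results of these data known. Values on each array are given for every gene past an adjusted p of 0.05 and, in each role group, for up to 4 genes at an unadjusted p under 0.05 or else the gene with the smallest p, and for further genes chosen after their values were seen (Col1a1, Lamc1, Fbln5, Lum, Dcn, Timp1, Acta2 and Ccn2). Each related list gives the 2 genes with the smallest p. A stellate cell marker, and the summed signal of that list, are not reported here. Normexp (offset 50) was run on the median signal and median background. On simulated data of 37647 probes, with 200 changed in each of 5 datasets, this comparison of tBA with vehicle called 51.5% of 2-fold, 84.6% of 4-fold and 91.8% of 8-fold changes, and 3.50% of calls were false. The simulated probes were independent and normally distributed, with no difference between slides. Their spread was taken from the log2 signal before the 75th percentile was subtracted, with outlier spots kept, unlike in the main fit. The real arrays have partly confounded slides and probes that vary together, so these rates may not hold for them. Figures used Python 3.11.15 and matplotlib 3.10.9.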

Additional observations from a re-analysis of the deposited data

How the results depend on the processing

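Under 17 alternatives (normexp, quantile and detected-probe scaling, the authors' table, other filters, the mean of a gene's probes, the slide as random or fixed block, only slide 1, the replicate block, and leaving out each array), 0 of the 34 genes passed an adjusted p of 0.05 in limma; the smallest was 0.140. Leaving out each array in turn gave 22 to 28 genes below 0, a median of -0.22 to -0.08, 5 to 11 non-overlapping genes lower and 0 to 5 higher (14.7% to 19.0% and 16.9% to 20.0% of all genes), and 1 to 4 lower and 0 to 1 higher at an unadjusted p under 0.05 (5.22% to 8.36% and 4.63% to 7.51%). The median of -0.22 and 11 lower genes came without tBA replicate 2, 11 lower genes also without vehicle replicate 2, and 5 higher genes without tBA replicate 3. Non-overlapping genes on the lower side numbered 8 with quantile normalization (12.7% of all genes) and 13 within slide 1 (26.2%), where 5 were higher (31.9%); 1 array against 3 separates more readily. With slide as a fixed block, 0 genes were lower and 1 higher at an unadjusted p under 0.05 in limma, beside 3.62% and 3.73% of all genes. The differences of that fit, like those within slide 1, rest on tBA replicate 1 alone. Same-numbered arrays did not vary together (correlations of -0.055, -0.057 and 0.015), and arrays of different number gave -0.056 to 0.105. No pairing by number was thus visible, though 3 such pairs cannot exclude one. With the replicate block, 2 genes were lower and 0 higher at an unadjusted p under 0.05 in limma, beside 6.47% and 5.56% of all genes.

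Small differences changed sign. With normexp, Des was at 0.0483, Timp3 at 0.105 and Mmp14 at -0.00435; with quantile normalization, Des at 0.0331, Timp3 at 0.0316 and Mmp14 at -0.00661. By the mean of all probes Col4a1 was at -0.0328 and Col18a1 at 0.0203. Within slide 1 and with slide as a fixed block, Acta2 was at 0.0590, Des at 0.0932, Nid2 at 0.0451 and Timp3 at 0.109. Leaving out 1 array also turned Col1a1 (-0.144 to 0.0895), Col4a1 (-0.0839 to 0.323), Col18a1 (-0.088 to 0.0613), Dcn (-0.478 to 0.356), Loxl2 (-0.118 to 0.085), Timp1 (-0.0133 to 0.166), Timp3 (-0.147 to 0.109), Acta2 (-0.189 to 0.131), Des (-0.105 to 0.117), Lrat (-0.324 to 0.0637), Pdgfra (-0.252 to 0.0171) and Hgf (-0.235 to 0.0567). The cause was not tested.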
